A study of Mus musculus with 2 samples.

Results

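The genes described here were picked for lower levels in β cells of HFD mice than of CD mice, and are 8 of the 31053 genes listed in both count matrices. They are Sult1d1, T2, S100a10, Msln, Rnase4, Ang, Tmem215 and Fam151a, and each was found by its symbol. The study asked which α, β and δ cell subpopulations occur in islets of a mouse model of prediabetes brought on by a high-fat diet (HFD). Islets of C57BL/6J mice aged 13 weeks were dispersed and their single cells sequenced by a droplet 3′ RNA method, as 1 HFD library and 1 CD library. The labels do not expand CD, and the sources used here do not state how many mice each library holds. The genes were chosen on the HFD against CD contrast in β cells of these same libraries, so their β cell ratios are a description and support nothing beyond themselves. With 1 library per diet there is no replicate check, no p-value is given, and every interval is a 95% interval for counting error only.

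Cells were kept at 1500 or more UMIs (unique molecular identifiers, each standing for 1 captured transcript), 500 or more genes and at most 15% mitochondrial UMIs. This left 12062 HFD cells with a median of 17673 UMIs and 9667 CD cells with a median of 21895. The share of mitochondrial UMIs had a median of 4.201% in HFD and 2.76% in CD. β cells were those with 30% or more of their UMIs from the insulin genes, 7433 in HFD and 6515 in CD. Of 9 β cell markers, 8 were highest in this class in both libraries. The other classes were α cells by Gcg (2005 and 1272 cells in HFD and CD), δ cells by Sst (662 and 570) and PP cells by Ppy (535 and 328). Their markers were highest in their own class for 7 of 8 in HFD and 6 of 8 in CD among α cells, for 5 of 6 in both libraries among δ cells, and for 3 of 5 in HFD and 2 of 5 in CD among PP cells. Cells meeting several hormone rules, 143 in HFD and 144 in CD, were left out of every class. The libraries shared 26 cell barcodes. In β cells, 8 acinar markers summed to 9.32 CPM (UMIs scaled to a fixed library total) in HFD and 32.4 CPM in CD, with 0 of 8 and 1 of 8 at 10 CPM or more and none at 0. With the β cells carrying over 0.05% acinar UMIs left out (18 in HFD and 199 in CD), the median log2 ratio of the 8 genes was -0.860, against -0.861 over all β cells.

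β cells make and secrete insulin, and a high-fat diet raises the demand on them. Rnase4 and Ang encode secreted ribonucleases of the RNase A family, and Ang (angiogenin) is known for cutting tRNA under stress and for acting on blood vessel growth. Sult1d1 is a cytosolic sulfotransferase that in mice conjugates catecholamines, and S100a10 (p11) is the light chain bound by annexin A2, which brings membrane proteins and plasminogen activation to the cell surface. Msln (mesothelin) is a lipid-anchored surface glycoprotein best known from the mesothelium. Tmem215 and Fam151a encode membrane proteins, and no role is given here for T2, a protein-coding gene whose RefSeq synonym is brachyury2.

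Rnase4 and Ang lie on the plus strand of chromosome 14 (GENCODE M21 on GRCm38), at 51091077 to 51106151 and 51091150 to 51102009, so that Ang lies within the span of Rnase4. Their annotated transcripts use first exons that end at the same bases, 51091253 or 51096473, and then splice to separate last exons, 51101386 to 51102009 for Ang and 51104807 to 51106151 for Rnase4. The kit reads transcripts from their 3′ ends; the positions of the UMIs within the genes are not part of the count matrices. The 250 bases before each of the 2 starts are shown because this pair was the only one with r above 0.1 from cell to cell, and the window of Sult1d1, the gene with the lowest β cell ratio among those with a window in the table, is shown beside them. Sequences are from RefSeq on GRCm38.p6, 5′ to 3′ on the gene's strand, at chr14:51090827-51091076 and chr14:51095750-51095999 (plus strand) and chr5:87569007-87569256 (minus strand). Capitals mark matches to GTTAAT (the half-site of HNF1 factors), TAATTA (a homeobox core) and CANNTG (the E-box), searched on both strands.
Rnase4 and Ang, first start: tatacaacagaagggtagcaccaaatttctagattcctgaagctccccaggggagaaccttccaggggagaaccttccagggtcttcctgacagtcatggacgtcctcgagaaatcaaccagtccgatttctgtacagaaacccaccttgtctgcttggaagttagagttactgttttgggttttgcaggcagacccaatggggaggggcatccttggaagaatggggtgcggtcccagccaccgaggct
Rnase4, second start (a start of Ang in GENCODE): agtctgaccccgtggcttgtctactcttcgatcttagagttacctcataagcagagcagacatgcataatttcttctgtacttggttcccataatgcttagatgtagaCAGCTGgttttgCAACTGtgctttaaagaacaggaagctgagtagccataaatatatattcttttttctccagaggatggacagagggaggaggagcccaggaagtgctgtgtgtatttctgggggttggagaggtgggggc
Sult1d1: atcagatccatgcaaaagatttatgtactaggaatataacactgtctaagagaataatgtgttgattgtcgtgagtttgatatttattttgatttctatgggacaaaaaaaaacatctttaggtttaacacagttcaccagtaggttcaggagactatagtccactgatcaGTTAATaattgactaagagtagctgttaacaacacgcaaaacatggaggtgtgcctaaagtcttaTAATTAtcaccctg
The first window of the pair held none of the 3 motifs and the second held a pair of E-boxes. The Sult1d1 window held 1 GTTAAT and 1 TAATTA, with TAATTA lying in the first exon as GENCODE draws it, and its GC content was 34.0%, against 52.4% and 46.0% in the windows of the pair. Over all 32817 RefSeq windows of this length, GTTAAT was found in 6.44%, TAATTA in 4.85% and CANNTG in 66.2%. Windows were listed for 5 of the 8 genes, as 6 distinct windows, and E-boxes were in 4 of the 6. A match is a match of letters only.

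All 8 genes were placed lower in HFD than in CD β cells, and 4 of them by 2-fold or more. Among all 5201 genes at 10 CPM or more in β cells of either library, 0.5% were at least 2-fold lower in HFD, 0.673% at least 2-fold higher and 56.5% had any ratio below 1; the rule used this contrast, so nothing is read from these counts. The median log2 ratio of HFD over CD was -0.861 for the 8 genes and -0.0492 for all genes tested. CPM here are UMIs summed over the cells of a class and scaled between libraries by the trimmed mean of M values (TMM).

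Msln stood at 9.61 CPM in HFD β cells and 29.7 CPM in CD β cells, a log2 ratio of -1.63 (interval -1.70 to -1.55) and rank 8 from the lowest of the 5201 genes. It passed the 10 CPM minimum through CD alone. The gene lies on chromosome 17 (25748613 to 25754378, minus strand). Sult1d1 (chromosome 5, 87554645 to 87569027, minus strand) had 24.3 CPM in HFD and 69.9 CPM in CD, a log2 ratio of -1.53 (-1.57 to -1.48). T2 (chromosome 17, 8355992 to 8423513, plus strand) had 22.8 CPM in HFD and 61.8 CPM in CD, a log2 ratio of -1.44 (-1.49 to -1.39). In HFD these 3 genes stood at 0.324, 0.347 and 0.369 times their CD levels, and S100a10 at 0.439 times. S100a10 (chromosome 3, 93555080 to 93564643, plus strand) had 43.9 CPM in HFD and 100.2 CPM in CD, a log2 ratio of -1.19 (-1.23 to -1.15).

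The ribonucleases differed less. Ang had 91.7 CPM in HFD and 132.7 CPM in CD (log2 ratio -0.53, interval -0.56 to -0.51), and Rnase4 had 190.1 CPM in HFD and 242.4 CPM in CD (-0.35, -0.37 to -0.33). Tmem215 (chromosome 4, 40472180 to 40477168, plus strand) had 64.9 CPM in HFD and 81.9 CPM in CD (-0.34, -0.37 to -0.30). Fam151a (chromosome 4, 106733889 to 106748292, plus strand) had 46.4 CPM in HFD and 52.1 CPM in CD (-0.17, -0.21 to -0.13). Ang, Rnase4, Tmem215 and Fam151a ranked 168, 644, 707 and 1740 from the lowest of 5201, so Fam151a stood well inside the bulk of genes. T2 overlaps Gm16702 and Fam151a overlaps Acot11 on the opposite strand, and the sources used here do not say whether counting used strand, so their UMIs may hold some of these partners. Short transcripts were placed lower as a class: the median log2 ratio was -0.214 over the 1299 genes with longest transcripts of up to 2027 bases and 0.0969 over the 1300 genes with those of 5112 bases or more. Fam151a (1923 bases), Rnase4 (1518), Ang (1094) and S100a10 (685) are among the shorter genes. With that trend removed the log2 ratio of Fam151a was -0.06 and that of Rnase4 -0.21, whereas S100a10 kept -1.01. With every cell counted alike, whatever its depth, Fam151a stood at -0.29.

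**Figure D1:**
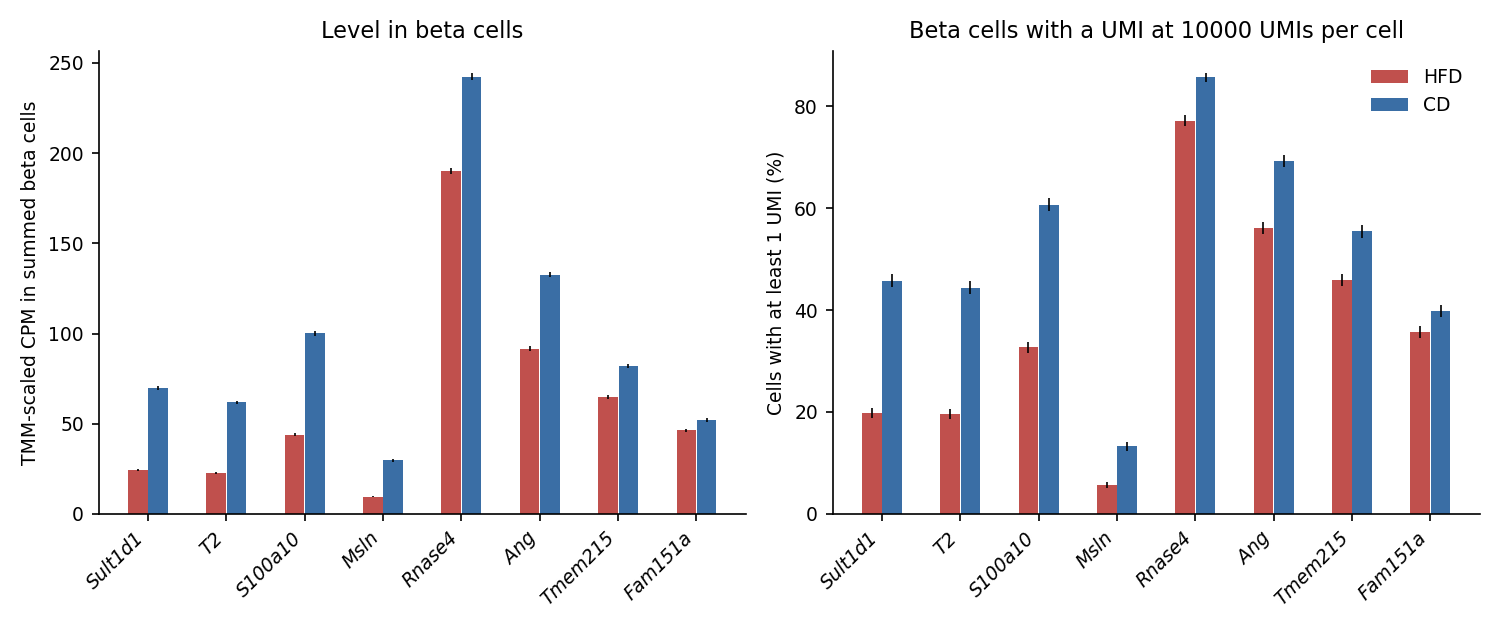
Level of each gene in β cells (left, TMM-scaled CPM of summed UMIs, with exact Poisson intervals) and share of β cells with at least 1 UMI after every cell was thinned to 10000 UMIs (right, percent, with exact Clopper-Pearson intervals), for HFD (red) and CD (blue). In both panels the HFD bar is below the CD bar for all 8 genes, by most for Sult1d1, T2, S100a10 and Msln.

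To set aside depth, each β cell was thinned to 10000 UMIs, which kept 6861 HFD and 5767 CD cells and left out 572 and 748 shallower ones. Sult1d1 was then detected in 19.8% of HFD β cells (18.9 to 20.8) and 45.8% of CD β cells (44.5 to 47.1). T2 was detected in 19.6% of HFD and 44.4% of CD cells, S100a10 in 32.7% and 60.7%, and Msln in 5.63% and 13.3%. For these 4 genes the share in HFD was 0.424 to 0.539 times that in CD. Without thinning, the same cells gave 38.3% and 73.5% for Sult1d1, 41.5% and 77.4% for T2, 61.9% and 90.4% for S100a10, and 8.91% and 19.7% for Msln in HFD and CD. Rnase4 was detected in 77.2% of thinned HFD cells and 85.7% of thinned CD cells, Ang in 56.2% and 69.2%, Tmem215 in 45.8% and 55.5%, and Fam151a in 35.6% and 39.8%. The unthinned shares of these 4 genes were 94.1% and 98.1% for Rnase4, 83.2% and 93.5% for Ang, 76.4% and 87.6% for Tmem215, and 66.5% and 76.5% for Fam151a in HFD and CD.

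Free RNA in droplets also gives UMIs, and endothelial cells, taken to lack β cell transcripts, were used as a reference. These cells, 542 in HFD and 345 in CD, met no hormone rule. Each had a UMI of at least 4 of 7 endothelial markers and few macrophage markers. Thinning to 3000 UMIs left out 169 of them in HFD and 92 in CD as too shallow. Being shallower than β cells, they do not give the number of free UMIs in a β cell. At 3000 UMIs per cell, Tmem215 was detected in 1.88% of HFD and 0.791% of CD endothelial cells, against 17.3% of HFD and 21.3% of CD β cells. Sult1d1 was detected in 0.804% of HFD and 0.395% of CD endothelial cells, against 6.85% of HFD and 19.2% of CD β cells. For T2 the endothelial shares were 0.804% in HFD and 2.77% in CD, against 6.26% and 17.0% in β cells, and for Msln they were 0.268% and 0%, against 2.72% and 7.39%. The 0 for Msln in CD is of 253 cells, which allows a share of up to 1.19% on a limit of 3 counts; the exact 95% interval reaches 1.45%. Median depth before thinning was 4426 UMIs in HFD and 4444 UMIs in CD endothelial cells, and 24050 and 26671 UMIs in β cells. The shares of Rnase4, Ang and Fam151a in endothelial cells were likewise below those in β cells of the same library. S100a10 gives no such comparison, since it was detected in 45.04% of HFD and 48.62% of CD endothelial cells.

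Among cells that had a UMI, levels of Sult1d1, T2, S100a10 and Msln differed less between diets than the shares did. A positive cell has at least 1 UMI, so at low mean counts its level is held near 1. The comparison therefore cannot tell fewer expressing cells from less RNA in each cell. Positive cells averaged 1.32 UMIs of Sult1d1 in HFD and 1.67 in CD, 1.20 and 1.44 of T2, 1.33 and 1.69 of S100a10, and 1.74 and 2.42 of Msln. For Rnase4 the level in positive cells differed more than the share, at 0.859 times CD against 0.901 times. Its mean over all thinned cells was higher, at 1.98 UMIs in HFD and 2.56 in CD, which leaves the share less room to differ. Over all thinned cells the mean of Msln was 0.0979 UMIs in HFD and 0.321 UMIs in CD. Msln was the gene most unevenly spread among cells: its variance was 2.37 times its mean in HFD and 3.51 times in CD, where independent counting alone gives a value of 1. A Poisson spread with the same mean would leave 90.7% of HFD and 72.5% of CD cells without a Msln UMI, and 94.4% and 86.7% had none. In the tenth of CD β cells with the most Msln lay 89.8% of its UMIs. Tmem215 was spread almost as counting alone would spread it, with a ratio of variance to mean of 1.11 in HFD and 1.06 in CD, and Rnase4 stood between them (1.89 and 1.83).

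Few mesothelial transcripts were counted in β cells. The 6 mesothelial markers, Krt19 included, summed to 0.499 CPM in HFD and 0.257 CPM in CD β cells. Without Krt19, which is also a duct marker, the other 5 (Upk3b, Wt1, Lrrn4, Upk1b and Nkain4) summed to 0 UMIs in the 636 Msln-positive HFD β cells and to 1 UMI in the 1212 Msln-positive CD β cells. Msln-negative β cells held 16 UMIs of these markers in 6797 HFD cells and 6 UMIs in 5303 CD cells. Such counts are too low to compare Msln-positive with Msln-negative cells.

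Across endocrine classes the 8 genes showed 3 patterns. T2, Msln, Tmem215 and Fam151a were highest in β cells of both libraries. Tmem215 had 64.9 CPM in HFD and 81.9 CPM in CD β cells, against 4.73 and 4.26 CPM in α cells, 2.97 and 6.21 CPM in δ cells and 2.08 and 2.11 CPM in PP cells. The levels of Tmem215 in these 3 classes were 3.65 to 11.8% of its level in empty barcodes (10 to 100 UMIs), and its level in endothelial cells was 16.1% in HFD and 4.58% in CD. Fam151a had at most 8.60 CPM outside β cells, and Msln at most 3.58 CPM. T2 had 9.28 CPM in HFD and 11.1 CPM in CD α cells, 2.97 and 11.7 CPM in δ cells and 5.27 and 3.89 CPM in PP cells. Neighbouring classes among α, δ and PP did not differ beyond their counting intervals for Fam151a in HFD, which held 3.53 (2.67 to 4.59), 5.05 (2.94 to 8.09) and 3.51 (2.20 to 5.32) CPM.

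Sult1d1 and S100a10 were highest not in β but in δ cells. Sult1d1 had 114.1 CPM in HFD and 124.2 CPM in CD δ cells, 68.5 and 60.8 CPM in PP cells, 24.3 and 69.9 CPM in β cells and 19.1 and 23.8 CPM in α cells. The order of β and PP cells for Sult1d1 was thus turned round between libraries, with PP cells above β cells in HFD and slightly below them in CD (PP interval 54.8 to 67.3, β interval 68.8 to 71.0). S100a10 had 206.2 CPM in HFD and 249.4 CPM in CD δ cells, 67.5 and 73.5 CPM in PP cells, 43.9 and 100.2 CPM in β cells and 9.34 and 19.4 CPM in α cells, and showed the same turn between β and PP cells. Its level in endothelial cells was 275.9 CPM in HFD and 302.1 CPM in CD. Endothelial markers were also present at low levels in δ cells, where 7 of them summed to 164.3 CPM in HFD and 82.4 CPM in CD, with 6 and 4 of 7 at 10 CPM or more and none at 0. Their part in the δ level of S100a10 was not tested.

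Rnase4 and Ang were detected in both α and β cells. Rnase4 had 190.1 CPM in HFD and 242.4 CPM in CD β cells, 129.7 and 110.6 CPM in α cells, 74.9 and 108.9 CPM in δ cells and 27.6 and 28.9 CPM in PP cells. Ang had 91.7 CPM in HFD and 132.7 CPM in CD β cells, 132.3 and 115.5 CPM in α cells, 27.9 and 54.0 CPM in δ cells and 20.8 and 18.3 CPM in PP cells. At 3000 UMIs per cell, Ang was detected in 31.1% of HFD and 28.6% of CD α cells, against 3.75% and 2.37% of endothelial cells. Macrophages, set apart by 7 markers of their own in the way of the endothelial cells, numbered 181 in HFD and 139 in CD. They had 88.9 CPM of Rnase4 in HFD and 105.3 CPM in CD, from 73 UMIs in each library. Levels of Rnase4 in PP cells (17.6% and 16.2% of the level in empty barcodes in HFD and CD) lay near those of endothelial cells (16.05% and 10.11%).

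**Figure D2:**
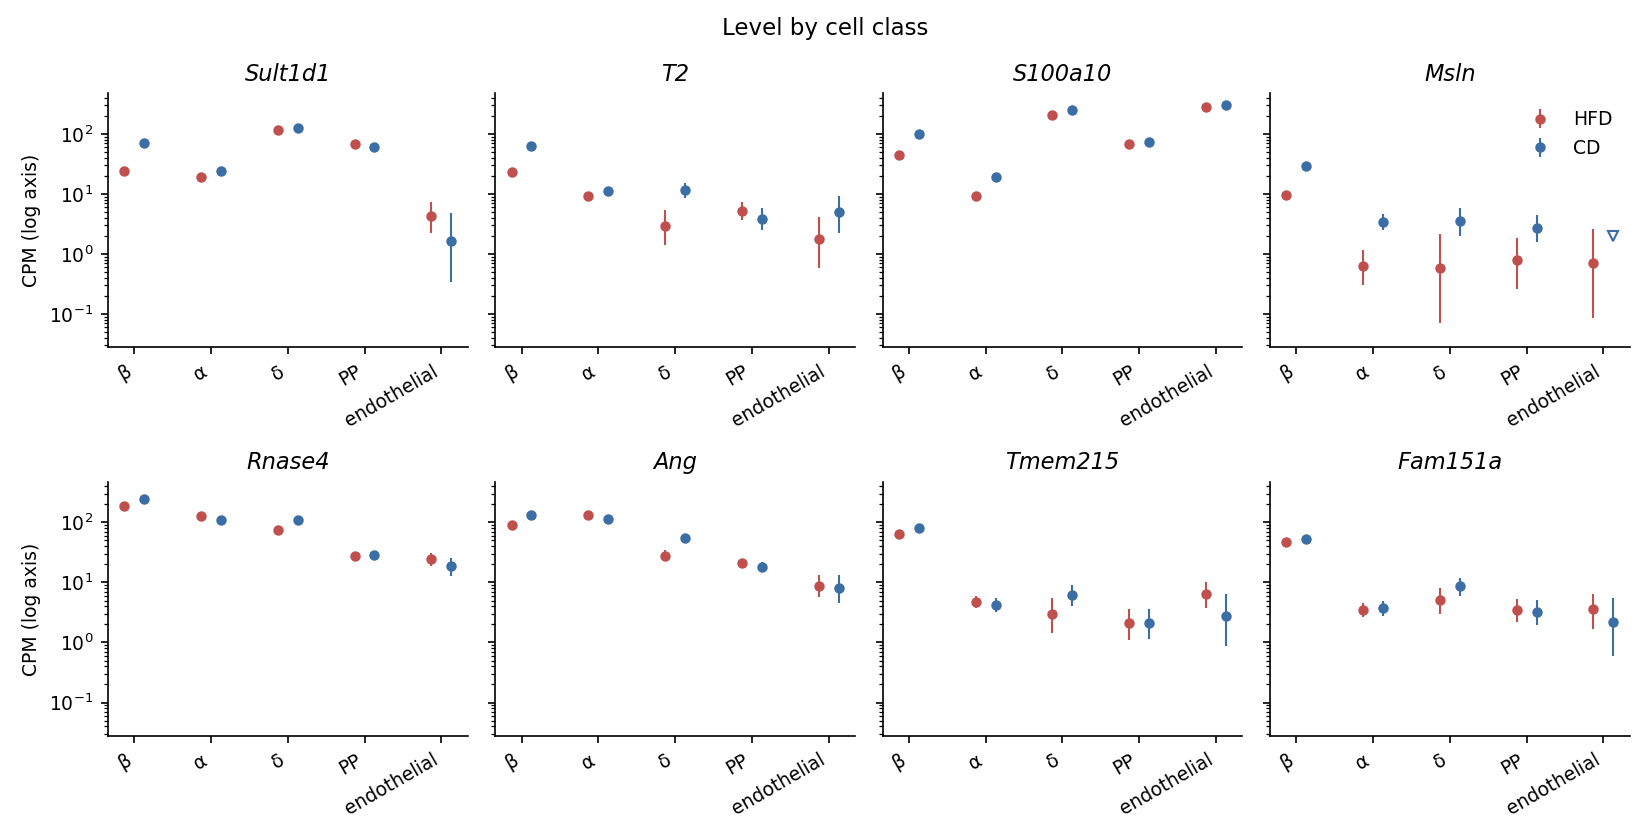
Level of each gene (CPM, log axis, with exact Poisson intervals) in β, α, δ, PP and endothelial cells of the HFD (red) and CD (blue) libraries; the open triangle is the upper limit of the interval where no UMI was counted. Sult1d1 and S100a10 are highest in δ among the endocrine classes, T2, Msln, Tmem215 and Fam151a in β, and Rnase4 and Ang are both present in α and β cells.

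The classes other than β were not used to choose the genes. In α cells 1 of the 8 genes, S100a10, was at least 2-fold lower in HFD, with 0.255% of 7063 genes past that fold, and 0 were at least 2-fold higher, with 0.807% of all genes. S100a10 passed the 10 CPM minimum there through CD alone, at 9.34 CPM in HFD and 19.4 CPM in CD. Any ratio below 1 was found for 5 of the 8 and for 48.1% of all genes at 10 CPM or more. The 5 include Msln and Fam151a, which were under 10 CPM in α cells, so the count and the share are not alike. The S100a10 ratio rested on 148 UMIs in HFD and 255 in CD. The level of S100a10 in α cells was 14.8% of that in empty barcodes in HFD and 17.8% in CD. Free RNA was estimated at 6.71% of α cell UMIs in HFD and 5.36% in CD, below the S100a10 values. That estimate is the lowest ratio of α cell to empty barcode level over 5 foreign genes in HFD and 8 in CD. Rnase4 in endothelial cells stood at 16.05% of its level in empty barcodes in HFD and 10.11% in CD. By that measure S100a10 in α cells was not above it in HFD and was above it in CD. The part of free RNA in the α cell S100a10 UMIs was not tested. With lower hormone shares for the classes its α cell log2 ratio was -0.44 in place of -1.06, with the length trend removed -0.94, with higher hormone shares -1.44 and with free RNA subtracted -1.41. Sult1d1 in α cells had a log2 ratio of -0.32 (-0.55 to -0.08). Rnase4 and Ang were higher in HFD than in CD α cells, opposite to β cells: the log2 ratios were 0.23 (0.13 to 0.33) for Rnase4 and 0.20 (0.10 to 0.29) for Ang. Over 13 other ways of processing, these ratios stayed above 0, from 0.18 to 0.38 for Rnase4 and from 0.14 to 0.34 for Ang.

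In δ cells 1 of the 8 genes, T2, was at least 2-fold lower in HFD, with 0.562% of 8539 genes past that fold, and 0 were at least 2-fold higher, with 1.04% of all genes. Ratios were below 1 for all 8 and for 54.6% of all genes, 3 of the 8 being under 10 CPM; with higher hormone shares for the classes 6 of the 8 were below 1. T2 passed the 10 CPM minimum in δ cells through CD alone, at 2.97 CPM in HFD and 11.7 CPM in CD, on 10 and 49 UMIs. T2 was near background there: at 3000 UMIs it was detected in 1.01% of HFD and 3.47% of CD δ cells, against 0.804% and 2.77% of endothelial cells. Sult1d1, at its highest in δ cells, differed little between diets there, with a log2 ratio of -0.12 (-0.32 to 0.07). S100a10 had a log2 ratio of -0.27 (-0.41 to -0.13) in δ cells. Rnase4 had a δ cell log2 ratio of -0.54 (-0.77 to -0.32) and Ang one of -0.95 (-1.31 to -0.60), on 94 Ang UMIs in HFD and 226 in CD. In δ cells, 6.80% of HFD and 13.7% of CD cells had over 0.05% of their UMIs on acinar genes. With those cells left out 2 of the 8 genes were at least 2-fold lower. With either lower or higher hormone shares for the classes 0 were. The share of all genes past that fold is not given for these alternatives, so nothing is read from these counts.

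In PP cells 0 of the 8 genes were at least 2-fold lower at 10 CPM or more, with 0.214% of 6079 genes past that fold, and 0 at least 2-fold higher, with 0.658% of all genes. A ratio below 1 was found for 4 of the 8 and for 52.1% of all genes at 10 CPM or more. The 4 include Msln and Tmem215, which were under 10 CPM in PP cells, so the count and the share are not alike. Sult1d1 had 68.5 CPM in HFD and 60.8 CPM in CD, a log2 ratio of 0.17 (-0.03 to 0.38), and S100a10 67.5 and 73.5 CPM, a log2 ratio of -0.12 (-0.32 to 0.07). Both PP intervals hold 0.

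**Figure D3:**
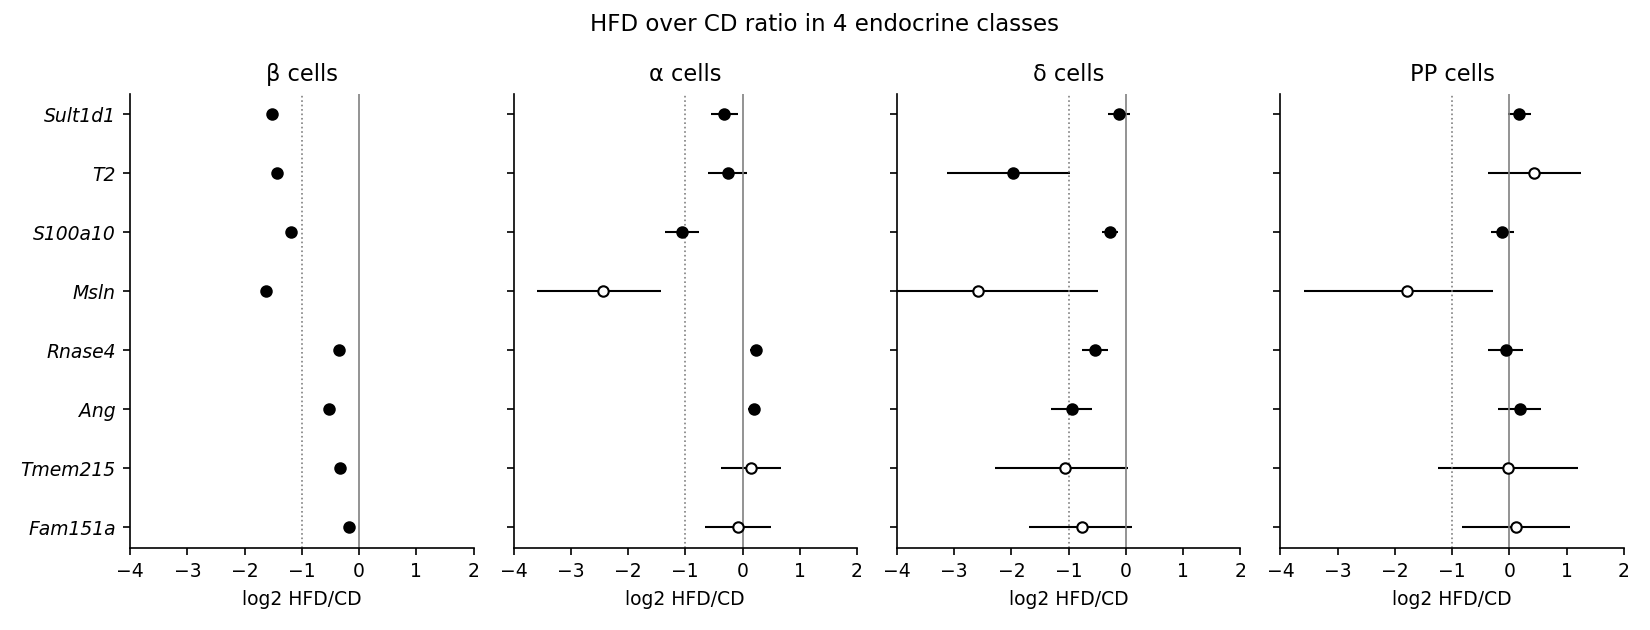
Log2 ratio of HFD over CD for each gene in β, α, δ and PP cells, with exact conditional intervals for counting error. Filled points are genes at 10 CPM or more in either library of that class, open points are below it, the dotted line marks a 2-fold lower level, and the δ interval of Msln runs past the left edge. Rnase4 and Ang lie left of 0 in β and right of 0 in α cells, and Sult1d1 and S100a10 lie near 0 in δ and PP cells.

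Rnase4 and Ang, whose first exons end at the same bases, were detected in different proportions in different classes. Ang made up 32.5% (32.1 to 32.9) of the UMIs of the pair in HFD β cells and 35.4% (35.04 to 35.72) in CD β cells. In α cells it made up 50.5% (49.0 to 52.0) in HFD and 51.1% (49.3 to 52.9) in CD, so the α cell share was the same within counting error in both libraries and lay above that of β cells in both. δ cells held 27.2% (22.5 to 32.2) in HFD and 33.1% (29.6 to 36.8) in CD. Empty barcodes held 38.8% (34.0 to 43.8) in HFD and 40.0% (35.5 to 44.7) in CD, on 156 Ang and 246 Rnase4 UMIs in HFD and 181 and 271 in CD. PP cells (42.9% in HFD and 38.8% in CD) and macrophages (33.0% and 41.1%) had intervals that overlapped those of the empty barcodes. In CD, but not in HFD, the intervals of β and δ cells overlapped that of the empty barcodes as well.

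**Figure D4:**
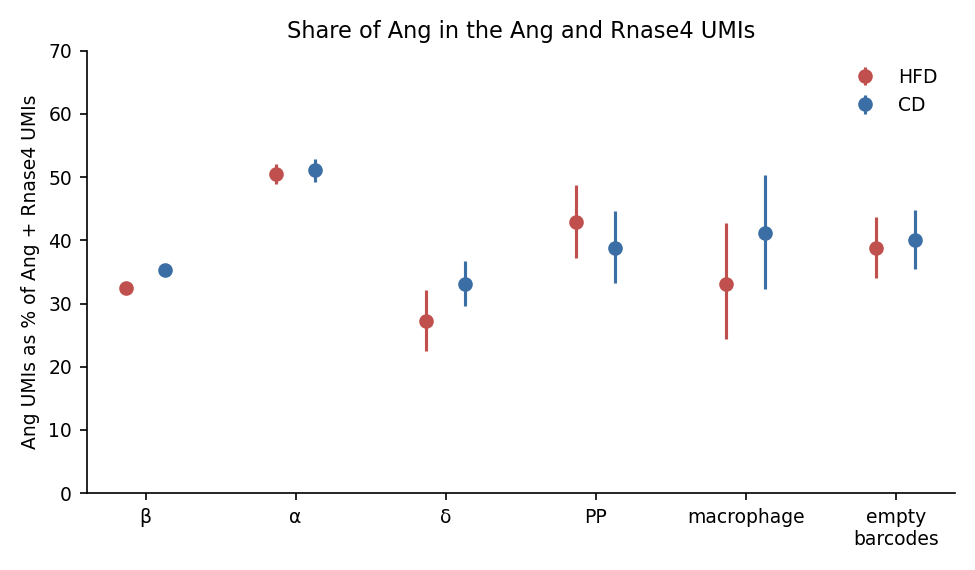
Ang UMIs as a percent of Ang and Rnase4 UMIs together (points, with exact Clopper-Pearson intervals) in β, α, δ and PP cells, macrophages and empty barcodes of the HFD (red) and CD (blue) libraries. The α cell points lie at 50.5% and 51.1% and the β cell points at 32.5% and 35.4%.

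Cells that had 1 of the genes were little more likely to have another. A thinned β cell had a UMI of 2.93 of the 8 genes on average in HFD and of 4.14 in CD, a ratio of 0.706. The variance of that number was 1.12 times the value for independent genes in HFD and 1.07 times in CD. HFD cells with 0 or 1 of the genes made up 13.1%, against 11.6% if the genes were independent, and in CD 2.01%, against 1.76%. In HFD 0.350% and in CD 3.59% of cells had 7 or 8 of the genes, against 0.162% and 2.90% if independent.

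Over the 28 pairs of genes, the median Pearson r of log-transformed thinned counts across cells was 0.0214 in HFD (6861 cells) and 0.0171 in CD (5767 cells). These cells share a library, its free RNA and a fixed depth, and such weak values in sparse counts are no finding. A single pair stood apart: Rnase4 and Ang had an r of 0.262 in HFD and 0.255 in CD. Both were detected in 46.1% of HFD β cells and 60.9% of CD β cells, 1.06 (1.04 to 1.09) and 1.03 (1.01 to 1.05) times the product of their shares. No other pair had r above 0.1 or an interval of that ratio off 1 in either library. The r of the pair grew with depth, with 0.165 in HFD and 0.141 in CD at 5000 UMIs per cell and 0.348 and 0.346 at 20000. In α cells at 3000 UMIs the r of the pair was 0.0387 in HFD and 0.102 in CD, against 0.125 and 0.0822 in β cells at that depth.

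**Figure D5:**
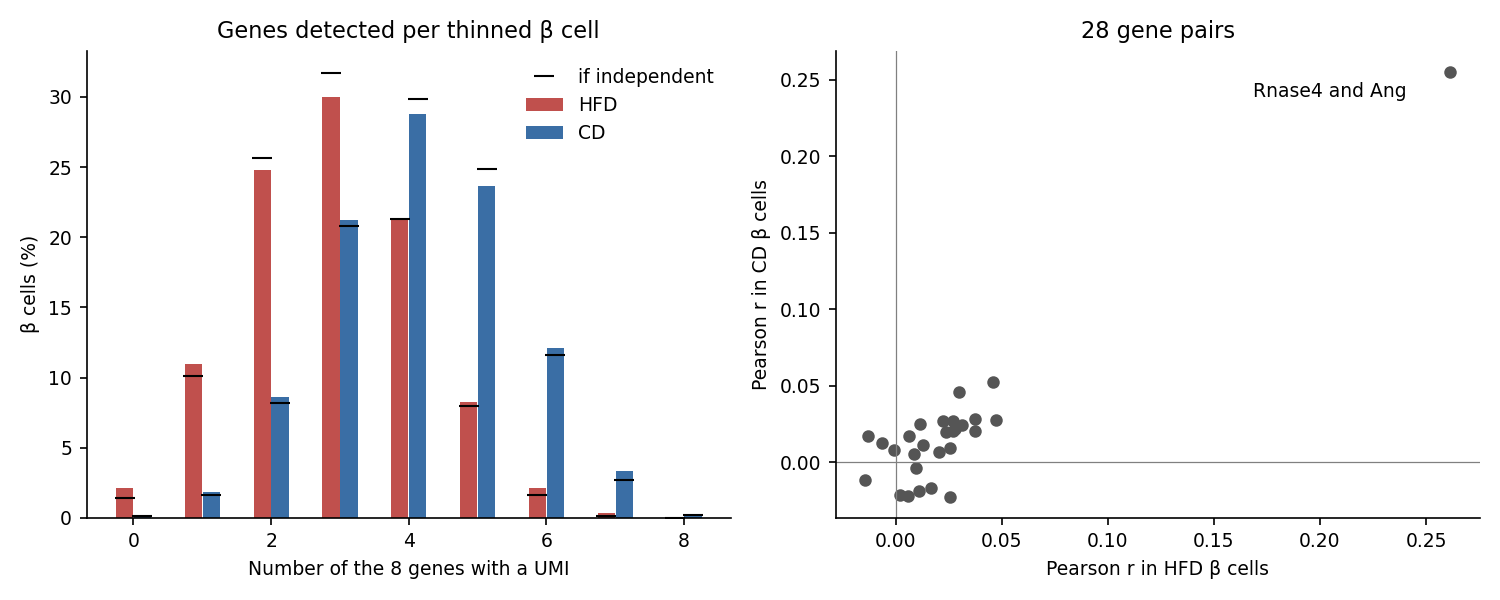
Left, percent of thinned β cells by the number of the 8 genes with a UMI, for HFD (red) and CD (blue), with black dashes at the percent expected if the genes were independent. Right, Pearson r across β cells for each of 28 gene pairs in HFD (x axis) and CD (y axis); 1 pair, Rnase4 and Ang, lies at 0.262 in HFD and 0.255 in CD, and no other pair is above 0.1.

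The genes most like the sum of the 8 across β cells were sought among 889 genes at 50 CPM or more in both libraries, ranked by the lower of the 2 libraries' Pearson r. The 10 highest were Peg3, Mt1, Mt2, Psap, Scg3, Zdhhc2, mt-Co1, Cpe, Mlxipl and Camk2n1. Peg3, an imprinted zinc finger gene, had 0.163 in HFD and 0.167 in CD, and the metallothionein Mt1 had 0.270 in HFD and 0.152 in CD. Mt1 itself stood at 662.6 CPM in HFD and 3835 CPM in CD β cells. For single genes the closest partner of Sult1d1 was the granule protein gene Chga (0.146 in HFD and 0.145 in CD), and that of Tmem215 was G6pc2 (0.104 and 0.0730), the islet glucose-6-phosphatase. T2 was closest to Ppp1r1a, Msln to mt-Atp6 and Fam151a to Rnase4, with r of 0.0460 to 0.0727 in HFD and 0.0526 to 0.0706 in CD. S100a10 was closest to Arl6ip1 (0.0974 and 0.118), followed by Ptma and the histone gene H2afz.

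S100a10 was higher in β cells with Mki67 in both libraries. Among thinned β cells with a UMI of Mki67, a marker of proliferation, S100a10 averaged 1.14 UMIs in HFD (164 cells) and 2.39 in CD (196 cells), against 0.417 and 0.977 UMIs in cells without one. It was detected in 60.4% (52.4 to 67.9) of Mki67-positive and 32.0% of Mki67-negative cells in HFD, and in 80.1% (73.8 to 85.5) and 59.97% in CD. Sult1d1 was lower in such cells, with 0.122 UMIs in Mki67-positive and 0.265 UMIs in Mki67-negative cells in HFD, and 0.485 and 0.774 UMIs in CD. Tmem215 was 0.709 times as high in Mki67-positive as in Mki67-negative cells in HFD and 0.665 times in CD. Within Mki67-positive cells HFD stood at 0.477 times CD for S100a10, and within Mki67-negative cells at 0.427 times.

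Cd79a had a UMI in 11.5% of thinned HFD β cells and 38.4% of thinned CD β cells. Sult1d1 averaged 0.478 UMIs in Cd79a-positive and 0.234 UMIs in Cd79a-negative HFD cells, and 0.867 and 0.700 UMIs in CD cells. HFD over CD was 0.551 for Sult1d1 in Cd79a-positive cells and 0.334 in Cd79a-negative cells. T2 differed little by Cd79a, at 1.01 times in HFD and 1.10 times in CD. Rnase4 averaged 2.36 UMIs in HFD β cells above the median of Mt1 and 1.67 UMIs in the rest, and 2.79 and 2.33 UMIs in CD. Aldh1a3 was detected in 181 HFD and 8 CD β cells, too few in CD to compare.

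Within bins of β cells, on CPM of total UMIs, Fam151a was the gene whose direction turned, at 48.2 CPM in HFD and 42.6 CPM in CD (log2 ratio 0.18, -0.08 to 0.44, which holds 0) at 70% or more insulin UMIs. Levels varied with the insulin share, whose UMIs count in the same total. Sult1d1 had 39.9 CPM in HFD and 89.0 CPM in CD β cells with 30 to 50% insulin UMIs, 30.5 and 84.2 CPM at 50 to 60%, 21.6 and 64.8 CPM at 60 to 70%, and 12.2 and 41.4 CPM at 70% or more. S100a10 likewise had 58.8 CPM in HFD and 139.3 CPM in CD in the lowest bin and 25.8 and 68.5 CPM in the highest. Tmem215 did not follow, with 46.3 CPM in HFD and 64.0 CPM in CD in the lowest bin and 57.1 and 73.7 CPM in the highest. Just outside the β cell rule, at 25 to 30% insulin, Sult1d1 had 63.3 CPM in 33 HFD cells and 115.8 CPM in 18 CD cells, and just inside, at 30 to 35%, 90.5 CPM in 39 HFD cells and 118.4 CPM in 34 CD cells. Ratios also varied with the mitochondrial share. The log2 ratio of Rnase4 was -0.50 at 2 to 4% mitochondrial UMIs and -0.16 at 4 to 15%, and that of Ang -0.68 and -0.33. Fam151a went the other way, at -0.22 and -0.47. The bin under 2% held only 56 HFD cells.

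Of the genes related to the 8 by family or partnership, those at 10 CPM or more in either library differed by less than 2-fold in β cells. Of 13 other RNase A family genes and the inhibitor listed, 1 reached 10 CPM: Rnh1, which binds and blocks these ribonucleases, at 35.4 CPM in HFD and 47.5 CPM in CD (log2 ratio -0.42). Of 15 sulfotransferase and sulfate donor genes 4 did, with a median log2 ratio of 0.04; Papss2, which makes the sulfate donor, had 122.0 CPM in both libraries and Impad1 had 40.1 CPM in HFD and 29.7 CPM in CD. Of 30 S100, annexin and plasminogen system genes 11 reached 10 CPM, with a median log2 ratio of -0.06 and none past 2-fold in either direction. S100a6 was at 16.5 CPM in HFD and 8.49 CPM in CD (log2 ratio 0.96), opposite in direction to S100a10, S100a11 at 89.5 and 106.8 CPM (-0.26), S100a1 at 64.4 and 54.5 CPM (0.24) and Anxa5 at 84.4 and 94.1 CPM (-0.16). Anxa2 itself was at 1.08 CPM in HFD and 0.383 CPM in CD β cells (log2 ratio 1.501, interval 1.12 to 1.89). No other member of the mesothelin family and none of Fam151b and 5 T-box genes reached 10 CPM in β cells. Below that level some related genes were past 2-fold, in both directions: Otoa was at 7.91 CPM in HFD and 2.94 CPM in CD (log2 ratio 1.43, 1.29 to 1.56), and Mslnl at 0.357 and 1.86 CPM (-2.38, -2.77 to -2.01). These were named after their values were seen.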

How the data were processed

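Per the file headers, the deposited matrices hold UMI counts per gene and barcode, for 1 HFD and 1 CD library. Per the submitters' processing notes, the authors used Cell Ranger 6.0.1 and mm10; the matrix header names software 3.0.2, and both are given as found. The authors' counts were used as deposited; all filters, classes and sums were computed here. Several-hormone cells were left out, and doublets marked by Scrublet (1164 in HFD and 748 in CD) were kept, with their removal tried as an alternative. For each class, the UMIs of a library were added up and TMM-scaled (edgeR 4.0.16 in R 4.3.3), fitted within each class. No count test was run, since each diet has 1 library. Genes at 10 CPM or more in either library gave the background. Intervals are exact (Poisson, Clopper-Pearson, conditional binomial). The scripts ran in Python 3.11.15 with numpy 2.4.6, scipy 1.17.1, scanpy 1.11.5 and statsmodels 0.14.6, and were tested on simulated data. Gene positions come from GENCODE M21 (31011 of 31053 identifiers matched), which may not be the annotation the authors counted on. The genes named are the 8 members, the related lists, and the genes most alike by the lower of both libraries' r. Members and lists were chosen with earlier results of these data known.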

Additional observations from a re-analysis of the deposited data

Results flagged for a closer look

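Rnase4 and Ang had opposite directions in β and α cells. Both were lower in HFD than in CD β cells and higher in HFD than in CD α cells, so that the log2 ratio of HFD over CD in β minus that in α cells was -0.581 for Rnase4 and -0.729 for Ang. The β cell ratios are among the values that chose the genes, so a difference below 0 is partly fixed by that choice. With 1 library per diet the difference was not tested between mice.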

How the results depend on the processing

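The median β cell log2 ratio of the 8 genes, -0.861, was -0.901 with total counts and -0.814 without hormone and mitochondrial genes. It was -0.899 with every cell counted alike and -0.714 with the length trend removed. With free RNA subtracted it was -1.004 by barcodes of 10 to 100 UMIs and -0.893 by barcodes of 100 to 500 UMIs. The first put free RNA at 13.2% of β cell UMIs in HFD and 7.96% in CD, the second at 3.05% and 1.26%. The cause of these shifts was not tested. The number of genes at least 2-fold lower in α cells, 1, was 0 with lower hormone shares, 0 with the length trend removed and 2 with no CPM minimum. In δ cells it was 1, and became 0 with lower and 0 with higher hormone shares, 2 with every cell counted alike, 3 with no CPM minimum and 2 without cells over 0.05% acinar UMIs. In PP cells it was 0, and 1 with no CPM minimum. The share of all genes past 2-fold is not given for these alternatives, so nothing is read from these counts. With no CPM minimum, the genes added in δ cells were Msln, on 2 UMIs in HFD and 15 in CD, and Tmem215, on 10 and 26. The Tmem215 interval held 0. Msln was the gene added in α cells (10 and 45 UMIs) and in PP cells (5 and 17 UMIs). The median ratio of detection shares, 0.675, was 0.632 at 5000 and 0.755 at 20000 UMIs per cell, and the ratio of genes detected per cell, 0.706, was 0.753 at 20000. Of the alternative values for these summaries 86 stayed within the limits set and 17 moved. For single genes 368 stayed and 49 moved, with 0 changes of sign in called values. Signs did change outside β cells for some ratios whose interval held 0. The log2 ratio of Fam151a in α cells was -0.08, and 0.52 with every cell counted alike. That of Tmem215 in α cells was 0.15, and ranged from -0.39 to 0.90. Leaving out acinar cells, free RNA from barcodes with 100 to 500 UMIs, and a β cell minimum of 10000 UMIs were chosen after seeing the data. Free RNA subtraction left no value for some low genes in α, δ and PP cells. No paired analysis was possible because each diet has 1 library. Depth limits what can be read of the genes under 10 CPM outside β cells.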
